A study of Homo sapiens with 8 samples.

Results

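The Hippo pathway effectors YAP1 and WWTR1 (TAZ), the TEAD1 to TEAD4 factors and 27 of their target genes were followed in 2 human lung cancer cell lines treated with the degrader ACBI1. The set was given as a list of 33 gene symbols for the pathway's nuclear factors and targets, and each symbol was found among the 61228 genes counted. All 33 passed the filter on low counts that left 21307 genes for testing. Transcripts were counted in 8 bulk RNA-seq libraries, 2 from each of H1975 with DMSO, H1975 with ACBI1, HCC44 with DMSO and HCC44 with ACBI1. Both lines carry the genotype label WT, and treatment lasted 96 hours. ACBI1 is a bifunctional degrader that brings the VHL ubiquitin ligase to the bromodomain proteins SMARCA2, SMARCA4 and PBRM1 of SWI/SNF chromatin remodelling complexes. Its labelled concentration is 1 mM, which is far higher than degraders are used at and leaves the unit in doubt. The labels do not say whether replicates came from separate cultures, so p-values measure the spread between these libraries, which may be technical.

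YAP1 and WWTR1 are transcriptional coactivators without a DNA-binding domain of their own. When the kinases LATS1 and LATS2 phosphorylate them, they are held in the cytoplasm and degraded, and when they are not phosphorylated they enter the nucleus and bind TEAD factors, which recognise the motif GGAATG at promoters and enhancers. Their targets include secreted matrix proteins, surface receptors, regulators of the actin cytoskeleton and genes such as LATS2 and AMOTL2 that feed back on the pathway. In epithelial cells the pathway responds to cell density, stretch and matrix stiffness, and its activity is often raised in lung cancer.

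Counts assigned to genes ranged from 62467286 to 70455517 per library, and the 33 genes took 0.377% to 0.471% of them. NKX2-1, a lung adenocarcinoma lineage factor, was at 19.2 to 27.5 CPM, the count scaled to library size, in H1975 and at most 0.0318 CPM in HCC44, while SFTPB was at most 0.266 CPM in every library. The summed level of 6 epithelial markers was 5137 and 5393 CPM with DMSO and 2331 and 2808 CPM with ACBI1 in H1975, and 939.8 and 979.9 CPM against 1199 and 1658 CPM in HCC44. KRT7 led this sum in each library, and KRT8 was lower with ACBI1 in HCC44, at 228 and 205 CPM against 146 and 157 CPM. The sum of 4 mesenchymal markers, led by VIM, was 2225 and 2823 CPM against 949 and 1048 CPM in H1975 and 483 and 587 CPM against 669.7 and 878 CPM in HCC44, and CDH2 was under 1 CPM in every library. Among 5 fibroblast markers, DCN had no count in any library, and the sum was led by COL1A1: it was 74.3 to 92.7 CPM with DMSO and 207 to 411 CPM with ACBI1 in HCC44, and 48.9 to 72.0 CPM and 25.5 to 30.5 CPM in H1975. The part of these shifts in the results below was not tested. The sums of 5 immune and 4 endothelial markers were at most 3.55 and 4.01 CPM, and CD3E had no count.

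With ACBI1, 18 of the 33 genes were called at an adjusted p under 0.05 in H1975, 12 lower and 6 higher, where 31.3% of all tested genes were called (16.7% lower and 14.6% higher). In HCC44 16 were called, 10 lower and 6 higher, where 34.9% of all genes were called (17.4% lower and 17.5% higher). Because 30 of the 33 had a mean of at least 10 CPM, they can also be set beside the 10271 genes past that level: 17 of 30 were called in H1975 against 38.3% of those genes, and 15 of 30 in HCC44 against 45%, so the share in HCC44 was near its background. In H1975 the treated libraries lay wholly above the controls for 11 of the 33 genes and wholly below for 14, beside 33.1% and 34.2% of all tested genes. In HCC44 they lay above for 8 and below for 13, beside 34.1% and 32.7%. The median log2 change was -0.16 in H1975 and -0.02 in HCC44, beside -0.01 and 0.01 over all tested genes. Scaling by library totals in place of TMM factors (trimmed mean of M-values) shifted the median gene by 0.20 in H1975 and 0.09 in HCC44, and the calls then split into 10 lower and 10 higher in H1975 and 8 lower and 6 higher in HCC44. Without H1975 DMSO replicate 2 the H1975 median was 0, and without HCC44 ACBI1 replicate 2 the HCC44 median was -0.16.

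**Figure D1:**
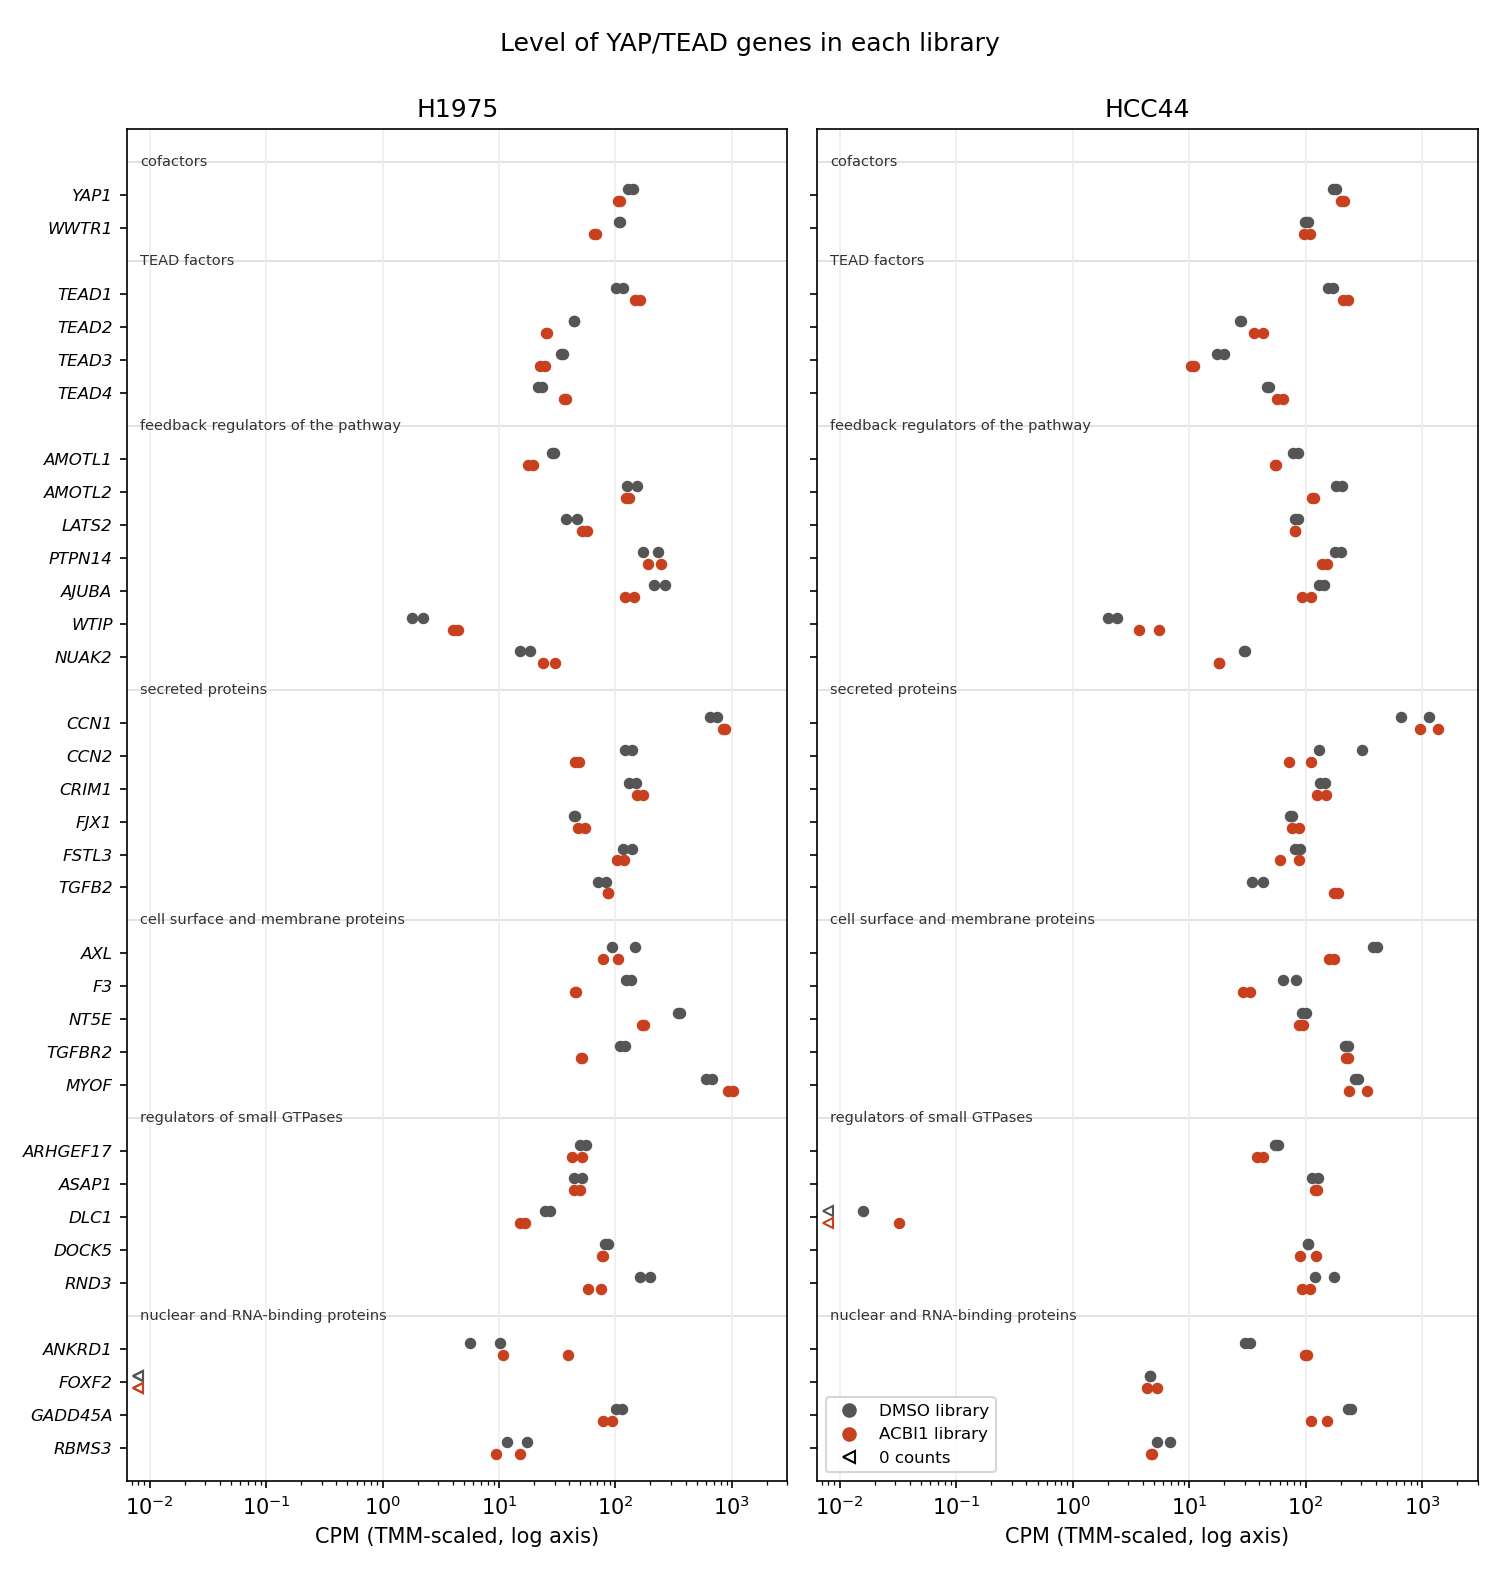
Level of each of the 33 genes in each library, as TMM-scaled CPM on a log axis, with H1975 on the left and HCC44 on the right. Each point is 1 library, grey for DMSO and red for ACBI1, and an open triangle marks a library with 0 counts. FOXF2 had no count in H1975, DLC1 had 0 to 2 counts per library in HCC44, and CCN1 reached 1369 CPM.

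Called lower in both lines were 5 genes, TEAD3, AMOTL1, AJUBA, CCN2 and F3, or 15.2% of the set, and 7.08% of all tested genes were called lower in both. TEAD1, TEAD4 and WTIP were called higher in both (9.09%, against 5.83% of all genes). TEAD2 and NUAK2 were called in opposite directions (6.06%, against 2.23%). A further 8 genes were called in H1975 alone (24.2%), 6 in HCC44 alone (18.2%) and 9 in neither line (27.3%). Of all tested genes, 7.86% were called higher and 8.27% lower in H1975 alone. In HCC44 alone 10.3% were called higher and 9.48% lower, and 48.96% were called in neither line. Calls in 1 line alone do not show a difference between the lines. That difference was tested directly and was called for 8 genes, YAP1, WWTR1, TEAD2, AMOTL2, NUAK2, TGFB2, NT5E and TGFBR2, where 18.6% of all tested genes were called. The change was higher in HCC44 for 6 of them (10.2% of all genes) and lower for 2 (8.4%), and with library totals the split was 6 and 5. Among the genes past 10 CPM those 8 of 30 stood beside 26.4%, a like share.

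The promoters of 4 targets are shown because their genes carry the contrast within the set: CCN2 and F3 were lower with ACBI1 in both lines, ANKRD1 had positive changes in both, and NUAK2 changed in opposite directions. Each is the 250 bases before the RefSeq transcription start in GRCh38.p14, read on the minus strand, at chr6:131951373-131951622 for CCN2, chr1:94541760-94542009 for F3, chr10:90921088-90921337 for ANKRD1 and chr1:205321746-205321995 for NUAK2. Capitals mark matches to the TEAD core GGAATG, or CATTCC on the other strand, and to the AP-1 motif TGANTCA, which reads the same on both strands.

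CCN2: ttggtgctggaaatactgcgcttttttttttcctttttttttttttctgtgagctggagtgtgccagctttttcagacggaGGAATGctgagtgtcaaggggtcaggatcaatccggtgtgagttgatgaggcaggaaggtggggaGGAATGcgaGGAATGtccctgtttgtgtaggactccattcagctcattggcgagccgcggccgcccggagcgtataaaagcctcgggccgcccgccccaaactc
F3: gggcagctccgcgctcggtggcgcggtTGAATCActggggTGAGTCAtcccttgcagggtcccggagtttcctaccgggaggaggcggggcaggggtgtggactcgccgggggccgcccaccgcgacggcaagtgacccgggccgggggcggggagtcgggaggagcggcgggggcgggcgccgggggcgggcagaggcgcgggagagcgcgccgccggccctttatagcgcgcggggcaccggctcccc
ANKRD1: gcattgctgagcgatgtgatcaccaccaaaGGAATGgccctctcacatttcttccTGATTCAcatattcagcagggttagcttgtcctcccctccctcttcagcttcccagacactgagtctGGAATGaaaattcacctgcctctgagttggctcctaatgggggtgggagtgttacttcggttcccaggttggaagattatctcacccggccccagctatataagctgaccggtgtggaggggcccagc
NUAK2: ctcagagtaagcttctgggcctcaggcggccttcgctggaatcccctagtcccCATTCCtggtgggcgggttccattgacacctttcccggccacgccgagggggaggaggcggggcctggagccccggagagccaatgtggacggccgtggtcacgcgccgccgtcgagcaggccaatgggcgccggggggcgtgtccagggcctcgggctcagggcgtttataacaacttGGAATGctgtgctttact

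The CCN2 window held 3 TEAD core matches, at bases -169, -104 and -95 from the start. ANKRD1 held 2, at -220 and -128, with an AP-1 match between them at -195. NUAK2 held 2, at -197 on the other strand and at -18, close to its RefSeq start. F3 held no TEAD core match in these letters and 2 AP-1 matches, at -223 and -210. In GENCODE 29 the genes reach past the RefSeq start, to base 205321791 for NUAK2, 90921276 for ANKRD1 and 94541800 for F3. Part of each of these windows thus lies within the annotated gene, with the NUAK2 core at -18 and the ANKRD1 core at -128. No TEAD and AP-1 match overlapped in any window of the set. RefSeq windows, 250 bases before to 50 after the start, were matched for 24 of the 33 genes, with 31 windows in all. A TEAD core was in 12 of these 31 windows (38.7%), where 14.0% of all 35116 promoter windows of the same length held it. At least 2 cores were in 4 of the 31 windows, against 1.37% of all. The AP-1 motif was in 3 of 31 windows (9.68%), against 7.71% of all. Most of these genes were listed because they are known TEAD targets, so the share of cores is no test of the list. The reason for that share was not tested. Genes with and without a core were called in both directions. Of the 12 genes with a core, 3 were called higher and 3 lower in H1975 and 3 higher and 5 lower in HCC44. Of the 12 without, 1 was called higher and 8 lower in H1975 and 1 higher and 3 lower in HCC44. Over all tested genes, 14.6% were called higher and 16.7% lower in H1975, and 17.5% and 17.4% in HCC44. Genes with and without a core were not tested against each other.

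The coactivators moved differently in the 2 lines. YAP1 (chr11:102110461-102233423) was at 128 and 141 CPM with DMSO and 104 and 110 CPM with ACBI1 in H1975, and at 173 and 183 CPM against 213 and 200 CPM in HCC44. The treated libraries lay below both controls in H1975 and above both in HCC44. In H1975 the log2 fold change was -0.33 ± 0.09 (standard error, adjusted p = 0.0172), and in HCC44 it was 0.22 ± 0.09 and not called (adjusted p = 0.0798), though it was with library totals (0.31, adjusted p = 0.0175). The difference between the lines was 0.54 ± 0.13 (adjusted p = 0.0131). The H1975 call was lost with library totals (-0.12, adjusted p = 0.306) and without H1975 ACBI1 replicate 1 (-0.25), ACBI1 replicate 2 (-0.35) or DMSO replicate 2 (-0.20). The difference was lost without those 3 libraries (0.47, 0.56 and 0.42) and without HCC44 DMSO replicate 1 (0.50). Fewer cells of a kind and less RNA per cell cannot be told apart in bulk libraries.

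WWTR1, which encodes TAZ, was at 111 and 107 CPM with DMSO and 68.3 and 65.4 CPM with ACBI1 in H1975. Its HCC44 libraries overlapped, with 98.8 and 104 CPM against 109 and 97.6 CPM. WWTR1 fell by 0.70 ± 0.09 on the log2 scale in H1975 (adjusted p = 0.00028) and changed by 0.03 ± 0.09 in HCC44 (adjusted p = 0.852). The difference between the lines, 0.73 ± 0.13, was called (adjusted p = 0.00335). Exons of YAP1 and WWTR1 share 9.98% and 9.45% of their bases with antisense genes. Those of the targets CCN2 and ARHGEF17 share 8.34% and 9.75%. The strand setting of the counting is not given in the sources used here.

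Each of the 4 TEAD genes, which encode the DNA-binding partners, was called in both lines. Of all tested genes, 5.83% were called higher in both lines, 7.08% lower in both and 2.23% in opposite directions. TEAD1 was at 101 and 117 CPM with DMSO and 146 and 164 CPM with ACBI1 in H1975, and at 156 and 173 CPM against 210 and 232 CPM in HCC44. TEAD4 was at 21.8 and 23.4 CPM against 36.0 and 37.4 CPM in H1975, and at 47.1 and 48.6 CPM against 56.4 and 64.7 CPM in HCC44. For both genes the treated libraries lay above the controls in each line. TEAD1 rose by 0.51 ± 0.11 (adjusted p = 0.00454) in H1975 and 0.43 ± 0.11 (adjusted p = 0.00901) in HCC44. TEAD4 rose by 0.70 ± 0.10 (adjusted p = 0.000705) and 0.34 ± 0.10 (adjusted p = 0.0246). In HCC44 the TEAD1 call was lost without ACBI1 replicate 2 (0.36) or DMSO replicate 1 (0.35), and the TEAD4 call without ACBI1 replicate 2 (0.24), DMSO replicate 1 (0.31) or DMSO replicate 2 (0.36).

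TEAD3 went the other way. It was at 33.8 and 35.2 CPM with DMSO and 22.4 and 24.7 CPM with ACBI1 in H1975, and at 20.1 and 17.2 CPM against 10.3 and 10.97 CPM in HCC44. It fell by 0.55 ± 0.12 (adjusted p = 0.0062) in H1975 and by 0.81 ± 0.12 (adjusted p = 0.000579) in HCC44, and the H1975 call was lost without ACBI1 replicate 1 (-0.45) or DMSO replicate 2 (-0.47). TEAD2 split by line. Its levels were 44.5 and 44.1 CPM with DMSO and 26.1 and 25.4 CPM with ACBI1 in H1975, and 27.8 and 27.6 CPM against 36.4 and 43.1 CPM in HCC44. The groups did not overlap in either line, and the changes were -0.78 ± 0.11 (adjusted p = 0.000469) and 0.52 ± 0.11 (adjusted p = 0.00367). The difference of 1.30 ± 0.15 (adjusted p = 0.00046) was called under every alternative run. TEAD2 shares 10.7% of its exon bases with CD37 on the opposite strand.

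Per kilobase of exon, the levels of the 6 factors can be ordered. The length is that of the exons merged over all annotated transcripts of a gene, and which transcripts are expressed was not tested. With DMSO in H1975, YAP1 stood at 21.4 ± 1.53 CPM per kb (mean ± SD, n = 2), TEAD2 at 14.9 ± 0.103, WWTR1 at 12.9 ± 0.31, TEAD3 at 11.3 ± 0.323, TEAD1 at 10.6 ± 1.08 and TEAD4 at 9.96 ± 0.50. The libraries of TEAD1 overlapped those of TEAD3 and those of TEAD4, while TEAD3 lay above TEAD4. With ACBI1 the order was YAP1 at 17.05 ± 0.686, TEAD4 at 16.2 ± 0.426, TEAD1 at 15.1 ± 1.18, TEAD2 at 8.64 ± 0.173, WWTR1 at 7.94 ± 0.249 and TEAD3 at 7.73 ± 0.535. The libraries of YAP1 lay above those of TEAD4, those of TEAD4 and TEAD1 overlapped, and so did those of WWTR1 and TEAD3. In HCC44 the order was the same with and without ACBI1 for YAP1 (28.2 ± 1.12 with DMSO, 32.8 ± 1.41 with ACBI1), TEAD4 (21.1 ± 0.457 and 26.6 ± 2.59) and TEAD1 (16.0 ± 1.21 and 21.5 ± 1.52), which came before WWTR1 (12.1 ± 0.45 and 12.3 ± 0.981), and TEAD3 was lowest (6.13 ± 0.662 and 3.49 ± 0.153). TEAD2 was at 9.30 ± 0.063 CPM per kb with DMSO and at 13.3 ± 1.58 with ACBI1 there, where its libraries overlapped those of WWTR1.

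The summed TEAD level in H1975 was 45.5 and 48.0 CPM per kb with DMSO and 46.2 and 49.0 with ACBI1, with overlapping libraries. In HCC44 the sum was 51.8 and 53.2 CPM per kb with DMSO and 60.9 and 69.1 with ACBI1. The make-up of the sum changed in H1975: TEAD2 held 32.8% and 30.8% of it with DMSO and 18.96% and 17.4% with ACBI1, while TEAD4 held 21.1% and 21.5% and then 34.3% and 33.6%. In HCC44 the share of TEAD4 stayed between 40.0% and 41.2% in all 4 libraries, and that of TEAD3 went from 12.7% and 10.6% to 5.56% and 5.21%. These shares were not tested and rest on the merged exon length, 10279 bases for TEAD1 and 2272 for TEAD4. In CPM without that scaling, TEAD1 was above TEAD4 in every library.

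**Figure D2:**
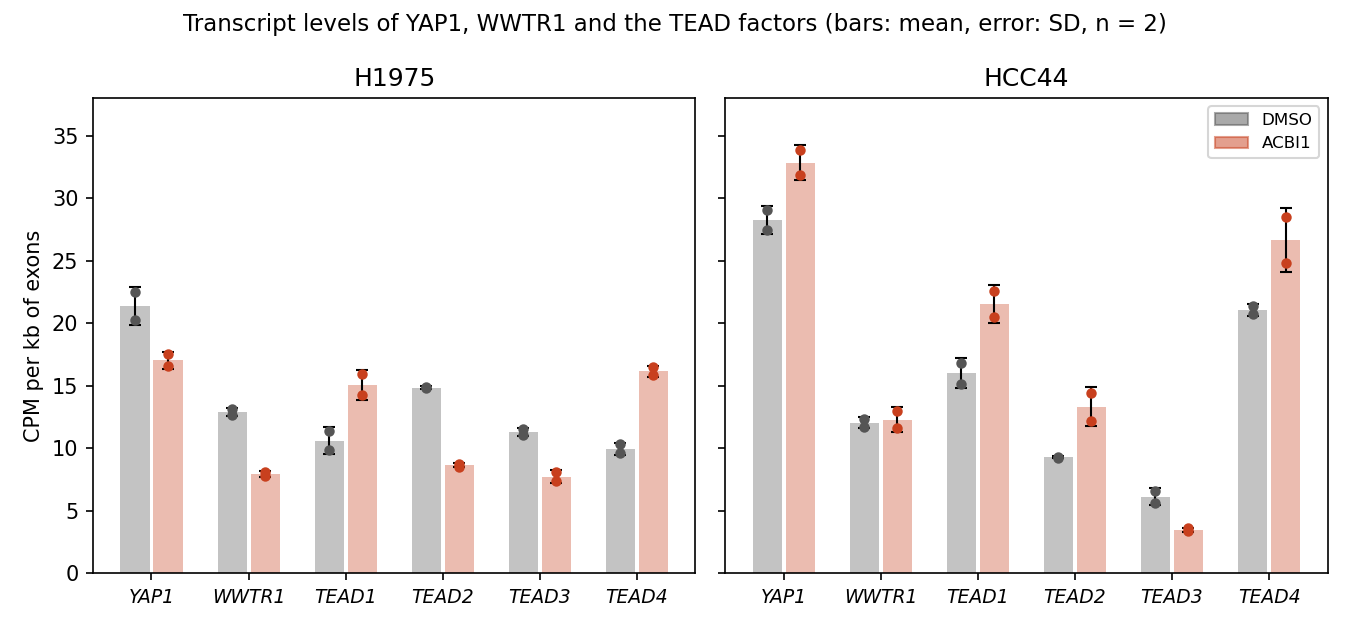
Levels of YAP1, WWTR1 and the TEAD factors in CPM per kb of exons, H1975 on the left and HCC44 on the right. Bars are means of 2 libraries, error bars are SDs and points are libraries, grey for DMSO and red for ACBI1. TEAD2 was 14.9 with DMSO and 8.64 with ACBI1 in H1975 but 9.30 and 13.3 in HCC44.

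Of 7 targets that regulate the pathway itself, 5 were called in each line, 3 higher and 2 lower in H1975 and 1 higher and 4 lower in HCC44, beside 31.3% and 34.9% of all tested genes called in either direction. AMOTL1 and AMOTL2 encode junction proteins that bind YAP and keep it from the nucleus. AMOTL1 was at 29.5 and 28.6 CPM with DMSO and 19.4 and 17.7 CPM with ACBI1 in H1975. In HCC44 it was at 77.8 and 85.7 CPM against 54.5 and 55.5 CPM. The treated libraries were lower in both lines, with log2 fold changes of -0.64 ± 0.10 (adjusted p = 0.000871) and -0.57 ± 0.10 (adjusted p = 0.00108). AMOTL2 was at 125 and 154 CPM against 122 and 131 CPM in H1975, which overlap, and at 206 and 183 CPM against 114 and 119 CPM in HCC44. It fell by 0.74 ± 0.11 in HCC44 (adjusted p = 0.000506), while the H1975 value of -0.15 ± 0.11 was not called (adjusted p = 0.351). The AMOTL2 difference between the lines was -0.59 ± 0.16 (adjusted p = 0.0234) and was lost without H1975 ACBI1 replicate 2 (-0.57), H1975 DMSO replicate 1 (-0.45), HCC44 ACBI1 replicate 1 (-0.55) or HCC44 DMSO replicate 1 (-0.51).

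LATS2, a kinase that inactivates YAP and TAZ, was at 37.9 and 47.1 CPM with DMSO and 51.5 and 57.2 CPM with ACBI1 in H1975, and at 86.9 and 80.5 CPM against 81.8 and 80.6 CPM in HCC44. It was called in H1975 (0.35 ± 0.11, adjusted p = 0.0353), but not without ACBI1 replicate 2 (0.30) or DMSO replicate 1 (0.20) there, without either HCC44 DMSO library (0.35, adjusted p = 0.0565) or with H1975 fitted alone (adjusted p = 0.061). Without H1975 DMSO replicate 2 the value was 0.57. AJUBA, a LIM protein that restrains LATS kinases, was at 213 and 266 CPM against 121 and 145 CPM in H1975, and at 130 and 143 CPM against 93.0 and 111 CPM in HCC44. Its treated libraries were below the controls in each line, with changes of -0.85 ± 0.13 (adjusted p = 0.000987) and -0.42 ± 0.13 (adjusted p = 0.0302). The HCC44 call of AJUBA was lost with library totals (-0.33) and without HCC44 ACBI1 replicate 1 (-0.30), DMSO replicate 1 (-0.49) or DMSO replicate 2 (-0.35).

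WTIP, another LIM protein of the AJUBA family, was at 2.24 and 1.79 CPM with DMSO and 4.06 and 4.41 CPM with ACBI1 in H1975. In HCC44 it was at 2.38 and 2.01 CPM against 5.52 and 3.68 CPM. It rose by 1.07 ± 0.25 in H1975 (adjusted p = 0.00775) and in HCC44 by 1.07 ± 0.25 (adjusted p = 0.00655), a call lost without HCC44 ACBI1 replicate 1 (0.75) or DMSO replicate 2 (0.95). AJUBA and WTIP, which belong to 1 protein family, thus moved in opposite directions. PTPN14, a phosphatase that binds YAP, was at 174 and 233 CPM against 190 and 247 CPM in H1975 and at 200.3 and 180 CPM against 137 and 154 CPM in HCC44. It was called in neither line (0.10 ± 0.16, adjusted p = 0.66, and -0.39 ± 0.16, adjusted p = 0.0843), though in HCC44 the groups did not overlap and the change was called without H1975 DMSO replicate 1 or 2 (-0.39, adjusted p = 0.0331 and 0.0321). Without H1975 DMSO replicate 2 the difference between the lines was called for PTPN14 (-0.77) and LATS2 (-0.61).

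NUAK2, a kinase that promotes YAP activity, was at 18.4 and 15.0 CPM with DMSO and 30.2 and 23.7 CPM with ACBI1 in H1975. In HCC44 it was at 30.2 and 29.5 CPM with DMSO and 18.1 and 17.98 CPM with ACBI1. All treated libraries were above the controls in H1975 and below them in HCC44, so that each treated group was near the level of the other line's controls. The changes were 0.69 ± 0.14 (adjusted p = 0.00455) and -0.73 ± 0.14 (adjusted p = 0.00277). Their difference, -1.42 ± 0.20 (adjusted p = 0.00131), was called under every alternative run. Its promoter, with the TEAD core at base -18, is printed above.

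**Figure D3:**
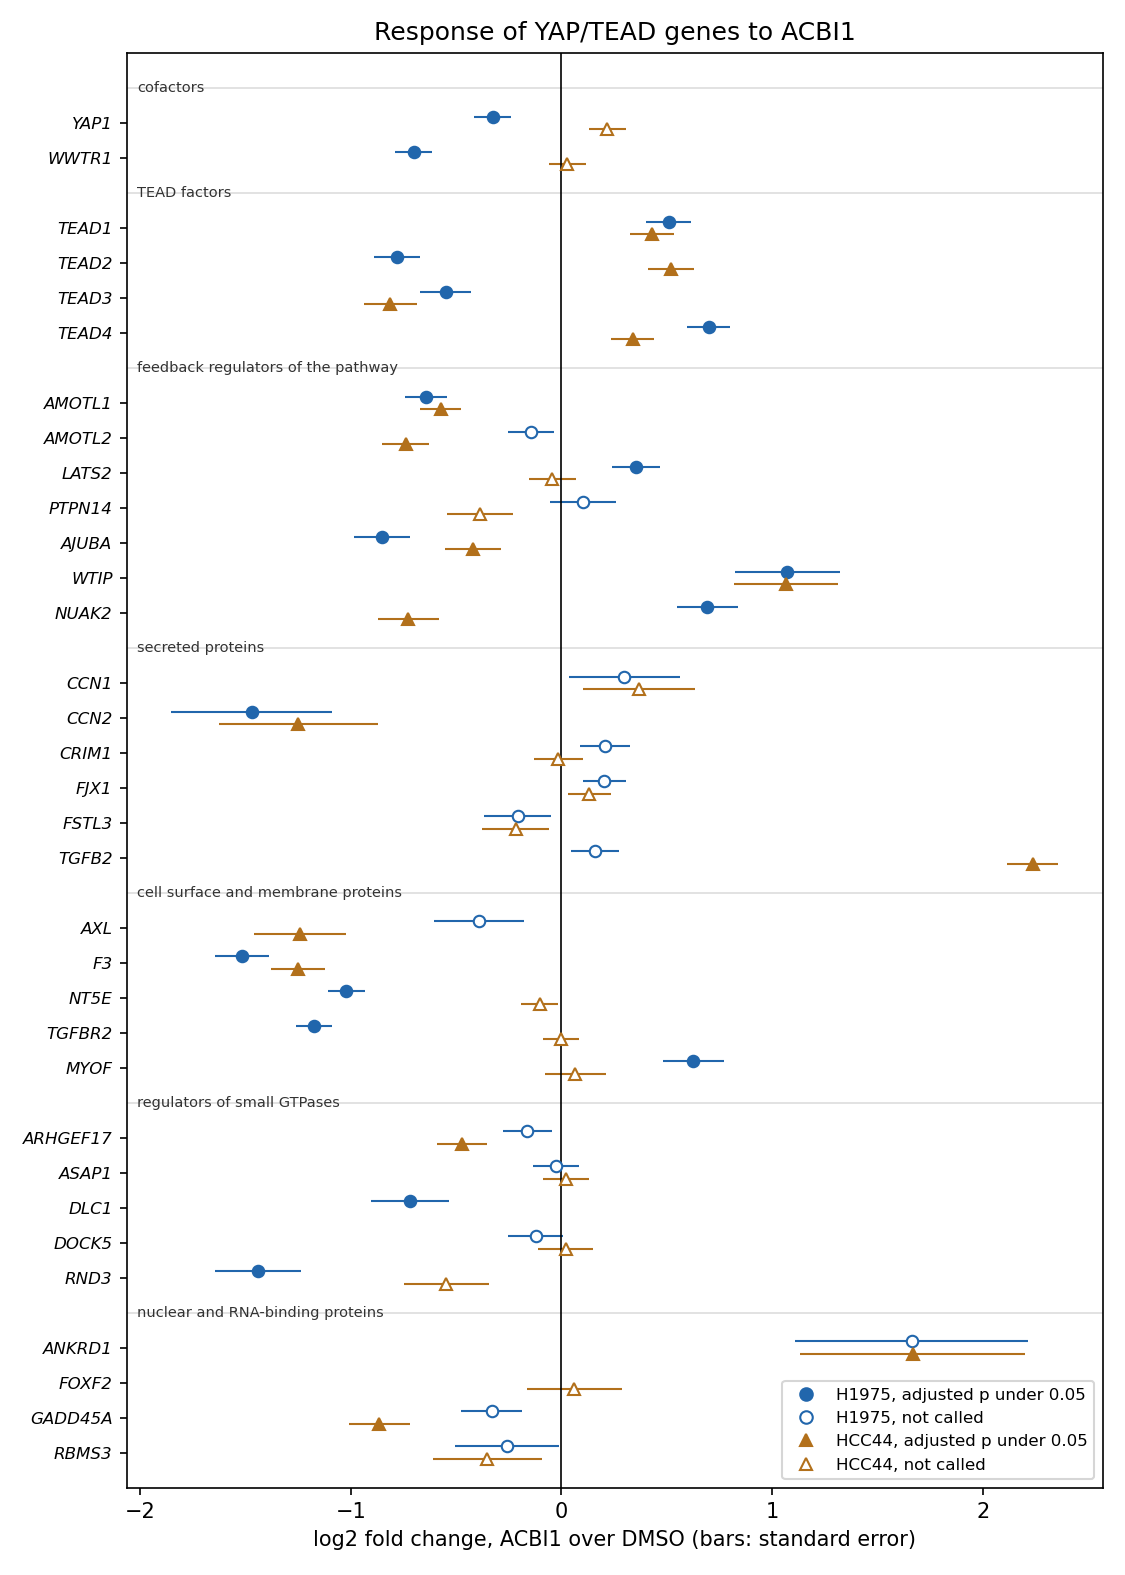
Log2 fold change of each gene, ACBI1 over DMSO, in H1975 (blue circles) and HCC44 (brown triangles), with standard errors from edgeR. Filled symbols have an adjusted p under 0.05; FOXF2 in H1975 and DLC1 in HCC44 are left out for lack of counts. F3 and CCN2 lie left of 0 in both lines, and TGFB2 lies at 0.16 in H1975 and 2.24 in HCC44.

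Among 6 targets listed as secreted proteins, only CCN2 was called in H1975, and CCN2 and TGFB2 in HCC44. These are 16.7% and 33.3% of the 6, beside 31.3% and 34.9% of all tested genes called. With library totals, CRIM1 (0.41), FJX1 (0.41) and TGFB2 (0.36) were also called in H1975 and CCN2 was not. CCN1 and CCN2 encode matricellular proteins that are used as standard readouts of YAP activity. CCN2 (chr6:131948176-131951373) was at 121 and 138 CPM with DMSO and 48.7 and 44.7 CPM with ACBI1 in H1975, and at 305 and 131 CPM against 111 and 72.2 CPM in HCC44. Treated libraries lay below the controls in both lines. In CPM, though, the HCC44 controls differed from each other by more than the HCC44 group means did. The changes were -1.47 ± 0.38 (adjusted p = 0.025) in H1975 and -1.25 ± 0.38 (adjusted p = 0.0391) in HCC44. Without HCC44 DMSO replicate 1 the HCC44 value was -0.52 (adjusted p = 0.126), and the call was also lost without HCC44 ACBI1 replicate 1 (-1.59) or 2 (-0.97) and without any 1 H1975 library (-1.25, adjusted p = 0.16 to 0.177). It was lost as well with HCC44 fitted alone, library totals, upper-quartile factors or no filter (adjusted p = 0.0604 to 0.211). In H1975 it was lost without ACBI1 replicate 1 (-1.50), ACBI1 replicate 2 (-1.39), DMSO replicate 1 (-1.57) or DMSO replicate 2 (-1.32), with library totals (-1.27, adjusted p = 0.0501) and with no filter (adjusted p = 0.155). In each of these settings the H1975 value stayed between -1.57 and -1.27.

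CCN1, its close relative, did not fall. It was at 653 and 741 CPM with DMSO and 842 and 873 CPM with ACBI1 in H1975, and at 1153 and 657 CPM against 1369 and 967 CPM in HCC44. The treated libraries were higher in H1975 and overlapped the controls in HCC44, and the changes of 0.30 ± 0.26 (adjusted p = 0.439) and 0.37 ± 0.26 (adjusted p = 0.334) were not called. With H1975 fitted alone the H1975 value was called (adjusted p = 0.0419). With the replicate number as a block in edgeR, CCN1 was called higher in H1975 (0.30, adjusted p = 0.012) and HCC44 (0.40, adjusted p = 0.00218). No label says that replicate numbers pair samples. With 1 library left out at a time the HCC44 value ranged from 0.02 to 0.82. The highest came without HCC44 DMSO replicate 1, where it was called. In HCC44, replicate 1 was above replicate 2 for both CCN1 and CCN2 in each treatment. CCN1 was the most abundant of the 33 genes per kb in all 4 groups, at 284 and 349 CPM per kb in H1975 and 369 and 476 in HCC44 with DMSO and ACBI1.

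TGFB2, a ligand of the TGF-beta receptor, showed the largest change among the 33 genes in HCC44. It was at 34.7 and 43.3 CPM with DMSO and 177 and 190 CPM with ACBI1 there, against 71.2 and 83.0 CPM and 85.5 and 86.6 CPM in H1975. TGFB2 started lower in HCC44 than in H1975 and ended higher. The rise of 2.24 ± 0.12 in HCC44 (adjusted p = 8.84e-07) stood beside 0.16 ± 0.12 in H1975 (adjusted p = 0.33), and the difference of 2.08 ± 0.17 was called (adjusted p = 6.53e-05). In HCC44 the fibroblast marker COL1A1 was also higher with ACBI1, as given above. LUM was at 0.779 and 0.956 CPM with DMSO against 3.42 and 4.56 CPM, and PDGFRB at 2.23 and 2.18 CPM against 2.85 and 2.96 CPM. COL1A2 was at 0.111 and 0.0784 CPM with DMSO and had no count with ACBI1, and DCN had no count. TGFB2 (chr1:218346235-218444619) shares 26.6% of its exon bases with TGFB2-OT1 on the same strand, so reads there could be assigned to either or left out as ambiguous.

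The 3 other secreted or matrix-bound targets were called in neither line. CRIM1, a BMP-binding protein, lay between 125 and 174 CPM in all 8 libraries, with changes of 0.21 ± 0.12 in H1975 and -0.02 ± 0.12 in HCC44. FJX1, the homologue of the fly four-jointed protein, changed by 0.20 ± 0.10 and 0.13 ± 0.10, and FSTL3, an inhibitor of activins, by -0.21 ± 0.16 and -0.22 ± 0.16. The adjusted p of these 6 values ran from 0.16 for FJX1 in H1975 to 0.955 for CRIM1 in HCC44. With 1 library left out at a time, FSTL3 in HCC44 ranged from -0.50 to 0.02. The lowest came without HCC44 ACBI1 replicate 2, where it was called.

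Of 5 targets at the cell surface or membrane, 4 were called in H1975, 3 of them lower, and 2 in HCC44, both lower, beside 31.3% and 34.9% of all tested genes called. F3 (chr1:94529225-94541800) encodes tissue factor, which starts coagulation. It was at 136 and 123 CPM with DMSO and 46.0 and 44.6 CPM with ACBI1 in H1975, and at 83.7 and 64.3 CPM against 33.1 and 29.1 CPM in HCC44. The treated libraries were lower in both lines by a wide margin. F3 fell by 1.52 ± 0.13 (adjusted p = 2.76e-05) and 1.25 ± 0.13 (adjusted p = 4.78e-05), and both calls held under every alternative run. No difference between the lines was called (0.27 ± 0.18, adjusted p = 0.343). F3 was thus the target whose fall was called in both lines with the smallest adjusted p, and its window above holds AP-1 matches and no TEAD core.

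NT5E, the CD73 enzyme that makes adenosine from AMP, was at 343 and 358 CPM with DMSO and 177 and 168 CPM with ACBI1 in H1975. In HCC44 it was at 102 and 93.9 CPM against 94.6 and 87.4 CPM. It fell by 1.02 ± 0.09 in H1975 (adjusted p = 2.96e-05) and changed by -0.10 ± 0.09 in HCC44 (adjusted p = 0.394). The difference was 0.92 ± 0.12 (adjusted p = 0.000939). TGFBR2, the type II receptor for TGF-beta ligands such as TGFB2, was at 110 and 121 CPM against 50.5 and 51.5 CPM in H1975, and at 219 and 233 CPM against 221 and 231 CPM in HCC44. The receptor fell by 1.17 ± 0.09 in H1975 (adjusted p = 1.38e-05), while in HCC44 the libraries overlapped and the change was 0.00018 ± 0.085 (adjusted p = 1). The difference of 1.17 ± 0.12 was called (adjusted p = 0.000218). In H1975 the receptor fell while its ligand TGFB2 was not called, and in HCC44 the ligand rose while the receptor was not called.

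AXL, a receptor tyrosine kinase linked to drug resistance in lung cancer, was at 93.7 and 148 CPM with DMSO and 78.2 and 106 CPM with ACBI1 in H1975, which overlap, and at 377 and 411 CPM against 158 and 176 CPM in HCC44. It fell by 1.24 ± 0.22 in HCC44 (adjusted p = 0.00318), while the H1975 value of -0.39 ± 0.22 was not called (adjusted p = 0.212). With 1 library left out at a time the H1975 value ranged from -0.69 to 0.03. The lowest came without H1975 DMSO replicate 1, where it was called. The AXL difference of -0.85 ± 0.30 missed the threshold (adjusted p = 0.093), but it was called with DESeq2 (-0.88, adjusted p = 0.0135), with no filter (adjusted p = 0.00622) and without H1975 DMSO replicate 2 (-1.27, adjusted p = 0.00319). MYOF, a ferlin of membrane repair, rose in H1975, where F3, NT5E and TGFBR2 fell, from 596 and 676 CPM to 933 and 1029 CPM (0.63 ± 0.15, adjusted p = 0.00882). In HCC44 it was at 264 and 282 CPM against 236 and 335 CPM, which overlap. The H1975 call was lost without DMSO replicate 1 (0.53, adjusted p = 0.0672), and the difference between the lines was called without HCC44 ACBI1 replicate 2 (-0.83).

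**Figure D4:**
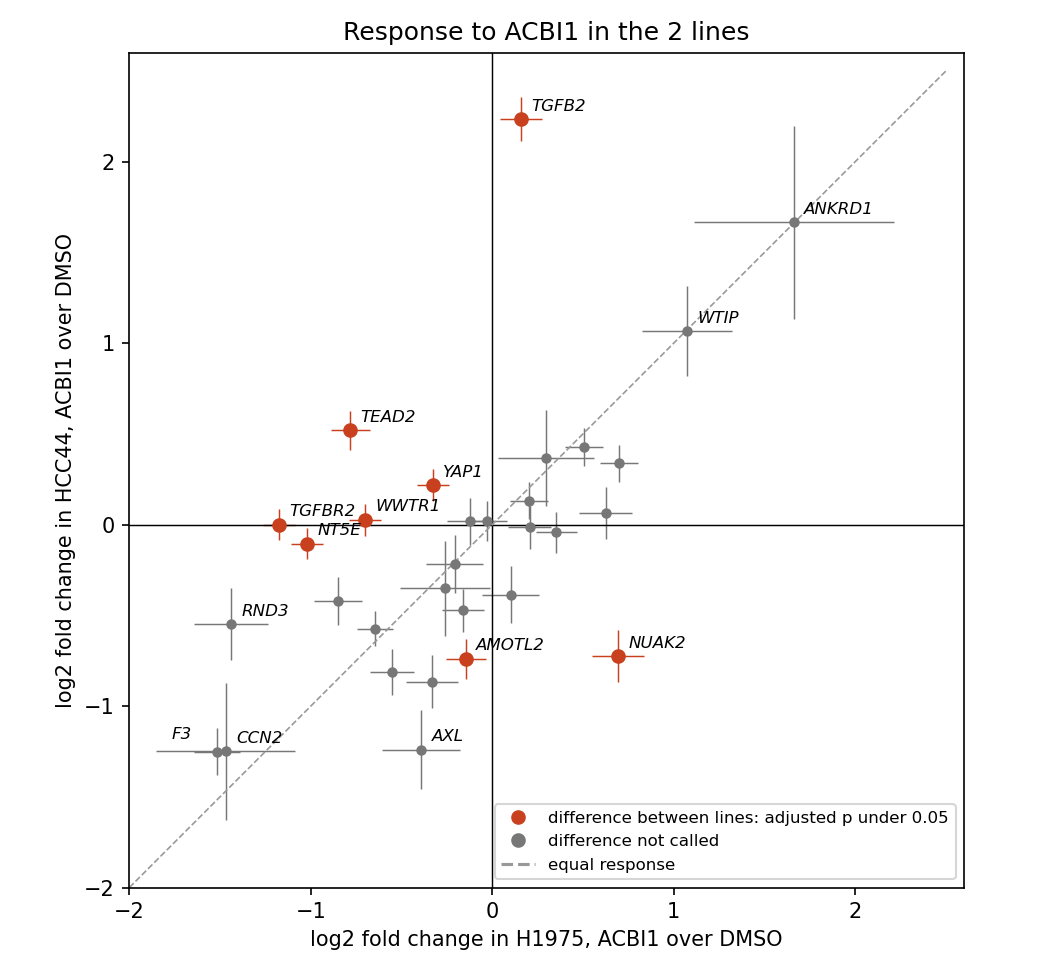
Log2 fold change with ACBI1 in HCC44 against that in H1975 for 31 of the 33 genes, with standard errors and a dashed line of equal response; FOXF2 and DLC1 are left out for lack of counts. Red points have a difference between the lines at an adjusted p under 0.05. TGFBR2 and NT5E lie at -1.17 and -1.02 in H1975 near 0 in HCC44, and NUAK2 lies at 0.69 in H1975 and -0.73 in HCC44.

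Among 5 targets that regulate small GTPases, RND3 and DLC1 were called lower in H1975 and ARHGEF17 in HCC44, and none was called higher. These are 40% and 20% of the 5, beside 31.3% and 34.9% of all tested genes called in either direction. RND3, a regulator of the actin cytoskeleton, was at 197 and 163 CPM with DMSO and 75.0 and 57.6 CPM with ACBI1 in H1975, and at 177 and 121 CPM against 93.6 and 110 CPM in HCC44. The groups did not overlap in either line, with changes of -1.44 ± 0.20 (adjusted p = 0.0013) and -0.55 ± 0.20 (adjusted p = 0.0666). The difference of 0.89 ± 0.28 was not called (adjusted p = 0.0627), but was with DESeq2 (0.85, adjusted p = 0.00956) and without H1975 ACBI1 replicate 1 (1.06) or HCC44 DMSO replicate 1 (1.19). In HCC44, RND3 was called without HCC44 DMSO replicate 2 (-0.80) and without H1975 ACBI1 replicate 1 or 2 (-0.55). With 1 library left out at a time its HCC44 value ranged from -0.80 to -0.25.

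DLC1, a GTPase-activating protein, was at 24.8 and 27.6 CPM with DMSO and 15.0 and 16.9 CPM with ACBI1 in H1975, a fall of 0.72 ± 0.18 (adjusted p = 0.0135). That call was lost without ACBI1 replicate 1 (-0.60) or DMSO replicate 2 (-0.59). In HCC44 it had 1 count over both DMSO libraries and 2 over both ACBI1 libraries, so no response can be read there. ARHGEF17, an exchange factor, was at 57.7 and 55.0 CPM against 38.2 and 43.0 CPM in HCC44 (-0.47 ± 0.12, adjusted p = 0.00927), a call lost without ACBI1 replicate 1 (-0.39) or DMSO replicate 1 (-0.44), and its H1975 libraries overlapped. ASAP1, an ArfGAP, and DOCK5, a Rac exchange factor, were called in neither line, with changes between -0.12 for DOCK5 in H1975 and 0.02 for both genes in HCC44.

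The last 4 targets act in the nucleus or bind RNA. ANKRD1 (chr10:90912096-90921276), an ankyrin repeat cofactor and a sensitive YAP readout, was at 10.2 and 5.69 CPM with DMSO and 39.2 and 10.9 CPM with ACBI1 in H1975. In HCC44 it was at 33.2 and 30.2 CPM against 102 and 98.9 CPM. All treated libraries were above the controls of their line, though in H1975 replicate 2 only just. The changes were 1.66 ± 0.55 (adjusted p = 0.0588) and 1.67 ± 0.53 (adjusted p = 0.0477), so the gene was called in HCC44 alone with equal values. With 1 library left out at a time the H1975 value ranged from 0.50 to 2.33, the highest without ACBI1 replicate 2, where it was called. It was also called with DESeq2 (1.70, adjusted p = 0.0295). The HCC44 call was lost without H1975 DMSO replicate 1 (1.67) or 2 (1.67), HCC44 ACBI1 replicate 1 (1.64) or 2 (1.69) and HCC44 DMSO replicate 1 (1.73) or 2 (1.60), and with RLE factors, upper-quartile factors, library totals or no filter (adjusted p = 0.0526 to 0.236). ANKRD1 and CCN2 are both standard YAP readouts with TEAD cores in their windows, and their changes had opposite signs in both lines.

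GADD45A, a stress-induced gene of growth arrest and DNA repair, was at 246 and 232 CPM with DMSO and 152 and 111 CPM with ACBI1 in HCC44, and at 114 and 101 CPM against 93.5 and 77.7 CPM in H1975. It fell by 0.86 ± 0.15 in HCC44 (adjusted p = 0.00122), while the value in H1975 was -0.33 ± 0.15 (adjusted p = 0.111) and was called without either HCC44 ACBI1 library (adjusted p = 0.0335 and 0.0334). The difference of -0.53 ± 0.21 was not called (adjusted p = 0.0992) but was without HCC44 ACBI1 replicate 1 (-0.77, adjusted p = 0.0107). RBMS3, an RNA-binding protein, changed by -0.26 ± 0.25 in H1975 and -0.35 ± 0.26 in HCC44, neither called. FOXF2, a forkhead factor, lay between 4.35 and 5.33 CPM in HCC44 and had no count in H1975, where a floor of 3 counts over a group allows up to 0.0227 CPM with DMSO.

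The lines differed in these genes before treatment. With DMSO, 24 of the 33 were called between HCC44 and H1975, 14 higher and 10 lower in HCC44, where 67.9% of all tested genes were called (31.6% higher and 36.4% lower). Past 10 CPM it was 22 of 30 beside 74.3%, a share near the background. YAP1 was 0.40 ± 0.09 higher on the log2 scale in HCC44 (adjusted p = 0.0019), and WWTR1 was not called (-0.10 ± 0.09, adjusted p = 0.337). TEAD1 (0.59 ± 0.11) and TEAD4 (1.08 ± 0.10) were higher in HCC44, and TEAD2 (-0.68 ± 0.11) and TEAD3 (-0.89 ± 0.12) were lower. AXL (1.71 ± 0.22), AMOTL1 (1.49 ± 0.10) and ASAP1 (1.34 ± 0.11) were among the genes higher in HCC44, and NT5E (-1.84 ± 0.09), RBMS3 (-1.26 ± 0.26) and MYOF (-1.22 ± 0.15) among those lower. DLC1 had 3462 counts over both H1975 controls and 1 over both HCC44 controls, a ratio of 3323 with an exact 95% counting interval of 596 to 131303. FOXF2 had 588 counts in the HCC44 controls and 0 in those of H1975, at least 166-fold higher by the exact 95% counting limit, and 204-fold higher against a floor of 3 counts over the group. CCN1 (0.38 ± 0.26) and CCN2 (0.75 ± 0.37) were not called, but without HCC44 DMSO replicate 2 they were (0.72 and 1.24). RND3 was called without HCC44 DMSO replicate 1 (-0.57), FSTL3 lost its call without H1975 DMSO replicate 2 (-0.39) or HCC44 DMSO replicate 1 (-0.48), and ANKRD1 (2.0003 ± 0.56, adjusted p = 0.0145) lost its call without H1975 DMSO replicate 1 (2.47) or 2 (1.69) or either HCC44 ACBI1 library (adjusted p = 0.0523 and 0.0533). DOCK5 (0.31 ± 0.13, adjusted p = 0.0524) was called without any 1 of the 4 ACBI1 libraries (0.31 to 0.34).

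Of 25 upstream Hippo components, which are kinases, scaffolds and polarity proteins, 24 were tested, and 1 was called higher and 3 lower in H1975 (16.7%) and 2 higher and 5 lower in HCC44 (29.2%). Over all tested genes 31.3% were called in H1975 and 34.9% in HCC44, so the HCC44 share was near its background. The median changes of the 24 components were 0.08 and 0.02. In H1975, MAP4K4, a kinase that activates LATS, fell by 0.86 ± 0.11, the scaffold FRMD6 by 0.64 ± 0.12 and the LATS cofactor MOB1A by 0.47 ± 0.09, while NF2, the merlin tumour suppressor, rose by 0.42 ± 0.11, a call lost without ACBI1 replicate 1 (0.37). In HCC44, PATJ rose by 0.61 ± 0.11 and WWC3 by 0.58 ± 0.10, and WWC1 fell by 0.51 ± 0.10 and TAOK3 by 0.48 ± 0.11. CRB3, MAP4K4 and LLGL1 were the other 3 called lower there, at -1.01 ± 0.23, -0.35 ± 0.11 and -0.35 ± 0.12; CRB3 lost its call without HCC44 DMSO replicate 1 (-0.70), and MAP4K4 without ACBI1 replicate 1 (-0.22) or DMSO replicate 2 (-0.23). LLGL1 was named after its value was seen. Of 4 VGLL cofactors that compete with YAP for TEAD, only VGLL4 had enough counts to be tested, and it fell by 0.54 ± 0.09 (adjusted p = 0.0015) in H1975 and by 0.34 ± 0.09 (adjusted p = 0.0138) in HCC44. The HCC44 call of VGLL4 was lost with library totals (-0.25) and without HCC44 ACBI1 replicate 2 (-0.28), DMSO replicate 1 (-0.34) or DMSO replicate 2 (-0.34).

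A further list of 24 genes reported as YAP or TAZ targets, outside the 33, was set beside them. In H1975 10 were called lower and DDAH1 alone higher (0.44 ± 0.11, named after its value was seen), with a median of -0.40, and in HCC44 13 lower and 6 higher, with a median of -0.56. Over all tested genes 16.7% were called lower and 14.6% higher in H1975, and 17.4% and 17.5% in HCC44. FLNA, the actin crosslinker filamin A, went from 6925 and 7667 CPM to 2625 and 2618 CPM in H1975 and from 2141 and 2403 CPM to 592 and 702 CPM in HCC44. It fell by 1.48 ± 0.11 (adjusted p = 1.37e-05) and 1.81 ± 0.11 (adjusted p = 1.95e-06). CCDC80 fell by 1.14 ± 0.13 and 1.12 ± 0.13, and ARHGAP29, a GTPase-activating protein, by 0.74 ± 0.10 and 1.19 ± 0.10. THBS1, thrombospondin 1, split by line like TEAD2: it fell by 1.39 ± 0.15 in H1975 and rose by 1.44 ± 0.15 in HCC44, a difference of 2.83 ± 0.22 (adjusted p = 7.83e-05). TGM2 fell by 2.25 ± 0.17 in HCC44 and was not called in H1975 (0.10 ± 0.16), and MARCKS fell by 1.35 ± 0.13 in H1975 and was not called in HCC44 (-0.09 ± 0.13).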

How the data were processed

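The deposited values are raw read counts per gene, 1 table per library; the authors' files end in the 5 summary rows of htseq-count, which held 14.3 to 15.8% of each table and were left out. Per the submitters' processing notes, TopHat2 2.1.1, HTSeq 0.11.0 and hg38 were used; the strand setting and annotation are not given in the sources used here. Per the labels, libraries were made with a NEBNext Ultra II DNA kit.

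Genes were filtered with filterByExpr, scaled by TMM and tested with edgeR 4.0.16 in R 4.3.3: one two-sided quasi-likelihood model over all 8 libraries, a mean per group, 4 residual degrees of freedom, Benjamini-Hochberg adjustment over 21307 genes, threshold 0.05. CPM uses TMM-scaled library sizes. Standard errors are the size of the log2 fold change over the root of the F statistic, and edgeR's common biological coefficient of variation came to 0.123. Replicates differed by more than sampling noise (chi-square per degree of freedom 24.0 to 48.4). The procedure was tested on simulated counts. Gene positions and exon lengths are from GENCODE 29, promoters from RefSeq (GRCh38.p14). Intervals and floors cover counting error only.

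Every one of the 33 genes is named. From the upstream, VGLL and further-target lists, genes were named by the smallest adjusted p among called genes, with a limit on their number. A gene that the rule names is not reported here. Members, lists, the naming rule and motifs were chosen with earlier results of these data known. Alternatives were DESeq2 1.42.0, other scalings and filters, each line alone, a replicate block, non-robust dispersion, a threshold of 0.01 and each library left out.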

Additional observations from a re-analysis of the deposited data

Results flagged for a closer look

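For 8 of the 33 genes the change with ACBI1 was not the same in H1975 and HCC44, by the test of the difference itself, given as log2 change in HCC44 minus that in H1975 (edgeR, adjusted p under 0.05). TGFB2 (2.08), TEAD2 (1.30), TGFBR2 (1.17), NT5E (0.92), WWTR1 (0.73) and YAP1 (0.54) had the higher change in HCC44. NUAK2 (-1.42) and AMOTL2 (-0.59) had the lower change in HCC44. The calls of TGFB2, TEAD2, TGFBR2, NT5E, WWTR1 and NUAK2 held under every alternative run, and those of YAP1 and AMOTL2 did not, as given beside their values.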

How the results depend on the processing

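Over 2308 combinations of gene, comparison and alternative for the 33 genes, 2151 stayed on their side of the threshold, 81 lost a call, 76 gained one, and no called change altered its sign. At an adjusted p under 0.01, 3691 genes were called in H1975, 4681 in HCC44 and 1654 in the difference between the lines. The difference was called for 14 of the 33 genes with no filter, a setting in which more genes entered the test. The share of all genes called there is not given here, so the 14 cannot be set beside it. With library totals the median change of the 33 was 0 in H1975, 0.0759 in HCC44 and 0.20 between the DMSO groups, and the share of higher calls over all genes was 72.3% in H1975 (46.6% with TMM), 60.5% in HCC44 (50.01%) and 40.5% in the difference (54.9%). Leaving out 1 library at a time gave 3690 to 7161 called genes in H1975, 4945 to 7342 in HCC44 and 2341 to 4134 in the difference; the fewest came without H1975 ACBI1 replicate 2, HCC44 DMSO replicate 2 and HCC44 DMSO replicate 1. The median of the 33 then ranged from -0.25 to 0 in H1975, -0.16 to 0.0004 in HCC44 and 0.0594 to 0.34 between the DMSO groups, with the 0.0594 without HCC44 DMSO replicate 1. Of the 33 genes, 14 to 19, 11 to 16, 6 to 10 and 22 to 26 were called in the 4 comparisons. With the replicate number as a block, 23 of the 33 genes were called in H1975, 20 in HCC44, 16 in the difference and 25 between the DMSO groups. Calls over all genes rose too, to 6358 in the difference from 3967 without the block. CCN1 was then called higher in H1975 (0.30) and HCC44 (0.40), and AXL in the difference (-0.87). No label says that replicate numbers pair samples, and deviations of same-numbered libraries correlated at 0.374 in H1975, 0.109 in HCC44 and 0.0199 between the DMSO groups. Each line fitted alone gives no difference between lines, and so was not run for the comparisons across lines. The cause of these shifts was not tested. Depth limits what can be said of DLC1 in HCC44 and FOXF2 in H1975, which had 0 to 2 counts a library.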
